A study of Rattus norvegicus with 20 samples.

Results

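The 10 genes described here encode glucose transporters and enzymes of glycolysis: Slc2a1, Slc2a3, Hk1, Pfkm, Pfkp, Aldoa, Pgk1, Eno2, Ldha and Ldhb. They were chosen by name, as steps from glucose entry to lactate, out of 14217 genes with a probe set of their own on a rat expression array. A probe set was theirs where the array's annotation gave it exactly that 1 symbol, which held for 19 of 31099 probe sets. The value of a gene is that of its probe set with the highest mean over all arrays, and its other probe sets are given beside it. The array's values were log2 RMA values, a scale on which a difference of 1 is a doubling, and values of different genes are not compared with each other because each probe set has its own response.

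The tissue was the central nucleus of the amygdala, taken from P rats, a line selected over generations for its preference for alcohol. In the ethanol group, 10 animals had access to ethanol at 15% and 30% during adolescence, and in the water group 10 animals had water only. All 20 animals were P rats, and each gave 1 array. The labels used here give no age, sex, intake or interval between drinking and dissection, so the groups differ in what was offered and the dose taken by each animal is not known.

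Brain cells run largely on glucose. GLUT1, the product of Slc2a1, carries it across the blood-brain barrier and into glia, and GLUT3, the product of Slc2a3, carries it into neurons. Hexokinase traps glucose as glucose 6-phosphate, phosphofructokinase commits it to glycolysis, and aldolase, phosphoglycerate kinase and enolase take it on towards pyruvate. Lactate dehydrogenase interconverts pyruvate and lactate, with tetramers rich in the Ldha subunit associated with lactate production and those rich in the Ldhb subunit with lactate use.

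Several glycolytic genes are textbook targets of hypoxia-inducible factor, whose binding motif has the core ACGTG or GCGTG. Promoter sequence from RefSeq (build GRCr8) was at hand for 8 of the 10 members, all but Slc2a3 and Pgk1, in 11 windows of the 250 bases before an annotated start. At least 1 such core, on either strand, lay in 8 of these 11 windows (72.7%), 1 window for each of the 8 genes, and in 36.7% of all 33469 promoters of the same length. The GC box GGGCGG lay in 6 of the 11 windows and in 30.5% of all promoters, and the E-box CACGTG, which contains the core ACGTG, lay in the Ldha window alone and in 5.59% of all promoters, both strands searched. The windows of Slc2a1 and Ldha are shown because they held the most cores, 4 each, and that of Ldhb, which held 1, because it belongs to the other lactate dehydrogenase subunit. In the Ldha count the E-box, whose letters read the same on both strands, entered on each strand. Each runs 5′ to 3′ on the strand of the gene, with the cores on either strand in capitals and overlapping cores merged. A match describes the letters and shows no binding.
Slc2a1, chr5:138002272-138002521, plus strand: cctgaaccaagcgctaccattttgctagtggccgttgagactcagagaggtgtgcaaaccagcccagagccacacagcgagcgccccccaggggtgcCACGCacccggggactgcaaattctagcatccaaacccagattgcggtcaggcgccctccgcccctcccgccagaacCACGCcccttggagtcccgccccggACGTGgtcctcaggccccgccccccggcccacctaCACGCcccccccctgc
Ldha, chr1:106507842-106508091, plus strand: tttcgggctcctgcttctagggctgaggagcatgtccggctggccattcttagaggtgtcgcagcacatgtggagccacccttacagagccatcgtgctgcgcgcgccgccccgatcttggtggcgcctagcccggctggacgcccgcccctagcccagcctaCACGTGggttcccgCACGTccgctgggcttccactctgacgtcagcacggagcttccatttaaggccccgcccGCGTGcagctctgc
Ldhb, chr4:177177409-177177658, minus strand: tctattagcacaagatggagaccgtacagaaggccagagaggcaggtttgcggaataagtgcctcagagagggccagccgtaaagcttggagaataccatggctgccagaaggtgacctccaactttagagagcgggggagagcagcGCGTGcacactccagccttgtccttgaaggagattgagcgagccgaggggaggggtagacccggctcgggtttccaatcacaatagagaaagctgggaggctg

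Across the series, array medians lay between 7.92 and 7.97 and the mean correlation of an array with the others between 0.966 and 0.988. Ethanol animal 5 and water animals 15 and 18 had the lowest such correlations and stood apart from the rest, so results that rest on them are given with and without them. Of 14 markers of the central amygdala, such as Prkcd, Sst, Crh and Gad1, 12 were measured above the filter, with mean log2 values per array of 11.59 to 12.41 in ethanol animals and 11.53 to 12.30 in water animals. In whole tissue, fewer cells of a type and less RNA per cell cannot be told apart. Markers of cell types differed in their means between the groups: all 14 neuron markers were higher in ethanol animals by a median of 0.12 on the log2 scale, and all 14 measured oligodendrocyte markers were lower, by a median difference of -0.36. The mean log2 value of the neuron markers ran from 12.08 to 12.40 in ethanol animals and from 11.83 to 12.25 in water animals. That of the oligodendrocyte markers ran from 10.85 to 12.39 in ethanol animals and from 11.50 to 12.65 in water animals. Of the other lists, 11 of 12 astrocyte markers were lower in ethanol animals (median -0.06), as were 4 of 4 measured choroid plexus and ependyma markers (median -1.16) and 7 of 7 meningeal markers (median -0.29). The mean log2 value of the choroid plexus and ependyma markers varied widely, from 6.43 to 11.46 in ethanol animals and from 6.86 to 11.88 in water animals. For the meningeal markers it ran from 7.61 to 8.79 in ethanol animals and from 7.57 to 10.04 in water animals. Among 9 microglia markers 3 were higher and 6 lower (median -0.04). No marker passed the test, and the part of these cell types in the values below was not tested beyond the fits with a marker score given beside them.

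The comparison of ethanol with water asked whether these transcripts differ in the nucleus after adolescent drinking. None of the 10 members passed limma's adjusted threshold of 0.05, which 0.0215% of the 18625 probe sets tested passed. The means of 9 members were higher in ethanol animals and that of Slc2a1 was lower, where 57.8% of all probe sets were higher. Before adjustment, Slc2a3, Pfkp and Aldoa on the higher side and Slc2a1 on the lower side had limma p-values under 0.05, 4 of 10 members against 12.8% of all probe sets. With the neuron marker score as a covariate 0 members had such a p. It was 3 with the oligodendrocyte score, after another scaling of the arrays (cyclic loess) or without the 3 arrays that stood apart, and 4 to 6 in the other fits. The share of all probe sets with such a p was counted in the main fit only. Whether a lower count is particular to the members was therefore not tested. The neuron score also overlaps with the groups, because its markers were higher in ethanol animals. The median SE was 0.043 over the members and 0.062 over all probe sets. The median log2 difference was 0.07 over the members and 0.02 over all probe sets, and the median size of a difference was 0.08 over the members and 0.06 over all probe sets. Ethanol and water animals overlapped for every member, as they did for all but 0.0268% of the probe sets.

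**Figure D1:**
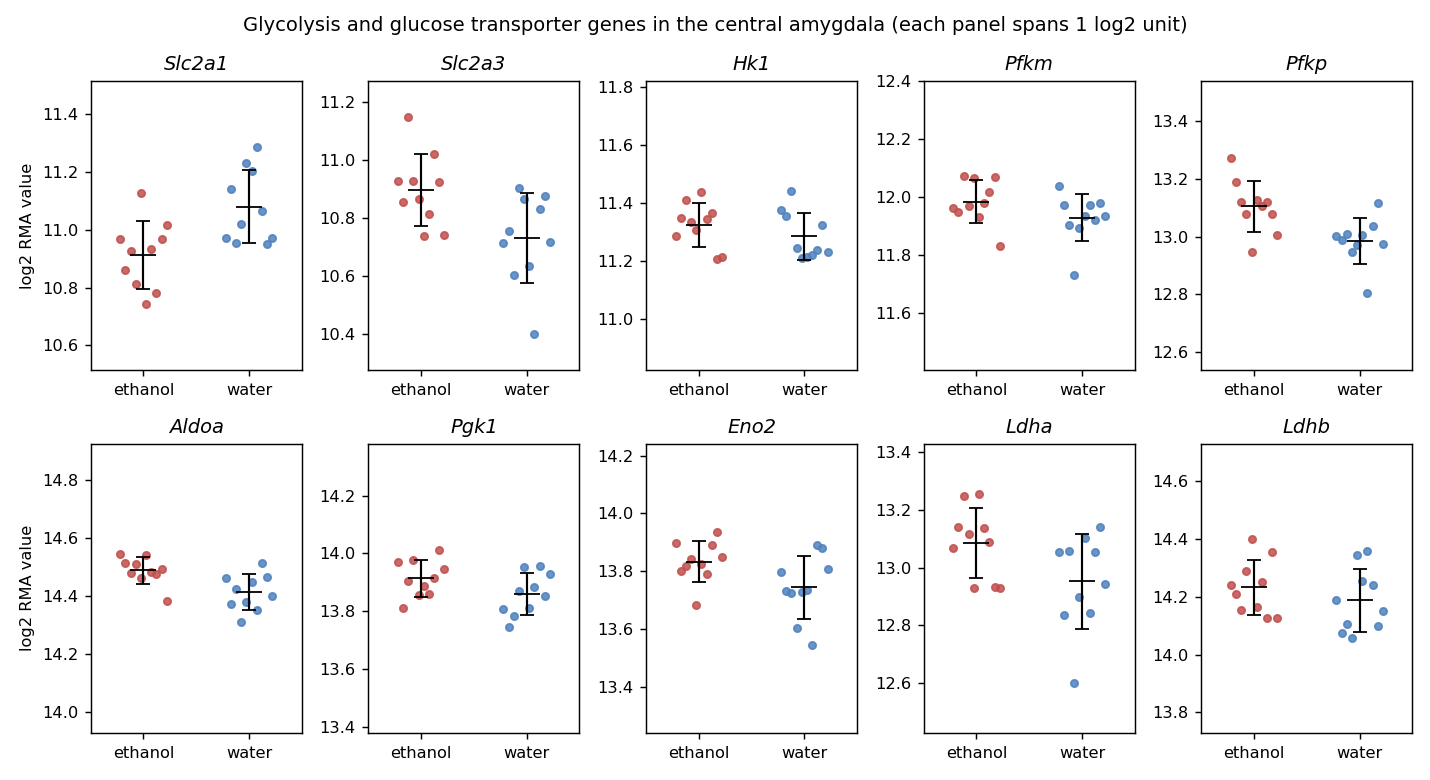
Log2 RMA value of the main probe set of each gene in each animal (points), with ethanol animals left and water animals right in every panel, and the group mean and SD (bars; n = 10 each). Each panel spans 1 log2 unit, so heights can be compared as differences but not as levels, and the groups overlap in all 10 panels.

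Of the transporters, Slc2a1 was lower and Slc2a3 higher in ethanol animals. The log2 value of Slc2a1 was 10.74 at its lowest, 10.93 at the median and 11.13 at its highest in ethanol animals, against 10.95, 11.04 and 11.29 in water animals. Ethanol animal 5, 1 of the arrays that stood apart, was the only ethanol animal above the water mean, and 6 of the 10 ethanol animals lay below the lowest water animal. The means were 10.91 ± 0.12 in ethanol animals and 11.08 ± 0.13 in water animals (SD, n = 10 each), a log2 difference of -0.17 (SE 0.055, 95% confidence interval -0.28 to -0.05), or 0.891-fold, with a limma adjusted p of 0.289. In the 3 runs of the accession order, which hold ethanol and water arrays in equal number and which no label names as a batch, the differences were -0.13, -0.30 and 0.03. In that last run each group has 2 animals. With the oligodendrocyte marker score or the neuron marker score as a covariate the difference was -0.12 in each fit, and without the 3 arrays that stood apart it was -0.17.

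The log2 value of Slc2a3 was 10.74 at its lowest, 10.90 at the median and 11.15 at its highest in ethanol animals, against 10.40, 10.74 and 10.90 in water animals. All 10 ethanol animals lay above the water mean and 5 lay above the highest water animal, while water animal 18, which stood apart, was the lowest of all. The means were 10.90 ± 0.12 in ethanol animals and 10.73 ± 0.16 in water animals (SD, n = 10 each), a log2 difference of 0.17 (SE 0.062, 95% confidence interval 0.04 to 0.30), or 1.12-fold, with a limma adjusted p of 0.314. The run differences were 0.22, 0.18 and 0.04. The difference was 0.15 without the 3 arrays that stood apart, 0.11 with the oligodendrocyte score and 0.07 with the neuron score as a covariate. A dimmer probe set of Slc2a3, 1387707_at, lay below the filter and gave 5.64 ± 0.15 in ethanol animals and 5.38 ± 0.22 in water animals (SD, n = 10 each). Its log2 difference of 0.26 (SE 0.080) had a limma adjusted p of 0.339 in a fit over all probe sets, with 10 of 10 ethanol animals above the water mean.

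The transporters were also set against each other within each array. The log2 difference of Slc2a3 minus Slc2a1, with the water mean set to 0, averaged 0.33 ± 0.18 in ethanol animals and 0 ± 0.24 in water animals (SD, n = 10 each). It ran from 0.08 to 0.59 in ethanol animals and from -0.54 to 0.27 in water animals. All 10 ethanol animals were above the water mean and 7 were above the highest water animal. This quantity combines the differences given above for each gene and was not tested.

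**Figure D2:**
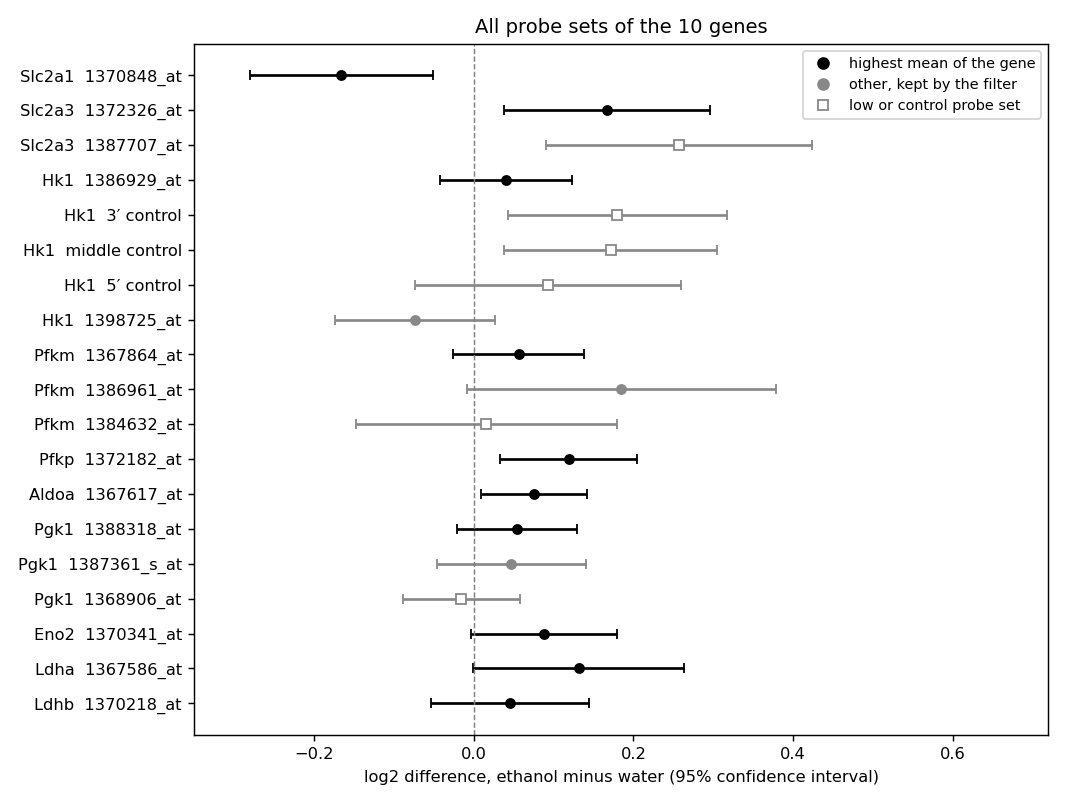
Log2 difference of ethanol minus water with its 95% confidence interval for all 19 probe sets of the 10 genes. Filled black points are the main probe sets, grey points the others above the filter, and open squares the probe sets below the filter or among the array's controls, which were fitted over all probe sets; Slc2a1 is the main probe set left of 0.

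The enzymes of the upper part of the pathway were higher in the mean of ethanol animals, by small amounts. Hk1, the main hexokinase of brain, had a log2 value of 11.21 at its lowest, 11.34 at the median and 11.44 at its highest in ethanol animals, against 11.21, 11.24 and 11.44 in water animals. These ranges nearly coincide, although 8 of 10 ethanol animals lay above the water mean, and the log2 difference was 0.04 (SE 0.040, limma adjusted p = 0.673). Its second probe set above the filter, 1398725_at, differed by -0.07 (SE 0.048, limma adjusted p = 0.509), so the probe sets of Hk1 gave opposite signs. The array also carries hexokinase control probe sets, which differed by 0.18 (SE 0.066) at the 3′ end, 0.17 (SE 0.064) in the middle and 0.09 (SE 0.080) at the 5′ end, with limma adjusted p-values of 0.390, 0.390 and 0.705. Over the 20 group-centred arrays these controls correlated with the main Hk1 probe set at only 0.19, -0.23 and -0.21, against 0.53 for 1398725_at. The direction for Hk1 therefore depends on the probe set.

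Pfkm and Pfkp encode the muscle-type and platelet-type subunits of phosphofructokinase, both present in brain. The log2 value of Pfkp was 12.95 at its lowest, 13.11 at the median and 13.27 at its highest in ethanol animals, against 12.80, 12.997 and 13.12 in water animals. Ethanol animal 5 was the only ethanol animal below the water mean, 5 ethanol animals lay above the highest water animal, and water animal 18 was the lowest of all. The means were 13.10 ± 0.090 in ethanol animals and 12.99 ± 0.079 in water animals (SD, n = 10 each), a log2 difference of 0.12 (SE 0.042, 95% confidence interval 0.03 to 0.21), or 1.09-fold, with a limma adjusted p of 0.300. The run differences were 0.18, 0.12 and -0.003. The difference was 0.11 without the 3 arrays that stood apart and 0.05 with the neuron score as a covariate.

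Pfkm differed by 0.06 (SE 0.039, limma adjusted p = 0.542), at 11.98 ± 0.075 in ethanol animals and 11.93 ± 0.081 in water animals (SD, n = 10 each). Its probe set 1386961_at differed by 0.18 (SE 0.093, limma adjusted p = 0.404) and the dim 1384632_at by 0.02 (SE 0.079). All its probe sets thus had the same sign with intervals that reach below 0. Within an array, Pfkp minus Pfkm with the water mean set to 0 averaged 0.06 ± 0.12 in ethanol animals and 0 ± 0.11 in water animals (SD, n = 10 each), which is less than the spread between animals.

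Aldoa, the aldolase of muscle and neurons, had the smallest SD of the 10 members in both groups. Its log2 value was 14.38 at its lowest, 14.49 at the median and 14.54 at its highest in ethanol animals, against 14.31, 14.41 and 14.51 in water animals. Ethanol animal 10 lay below the water mean, and the other 9 lay above it. The means were 14.49 ± 0.046 in ethanol animals and 14.41 ± 0.062 in water animals (SD, n = 10 each), a log2 difference of 0.08 (SE 0.032, 95% confidence interval 0.01 to 0.14), or 1.05-fold, with a limma adjusted p of 0.345. The run differences were 0.12, 0.07 and 0.005. Without the 3 arrays that stood apart the difference was 0.06, and with the neuron score as a covariate it was 0.05.

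Of the lower steps, Pgk1, which makes the first ATP of the pathway, averaged 13.91 ± 0.063 in ethanol animals and 13.86 ± 0.073 in water animals (SD, n = 10 each). The log2 difference was 0.05 (SE 0.036, limma adjusted p = 0.519), and its second probe set above the filter, 1387361_s_at, gave 0.05 (SE 0.045). The dim 1368906_at gave -0.02 (SE 0.035). Eno2, the enolase of neurons, had a log2 value of 13.68 at its lowest, 13.83 at the median and 13.94 at its highest in ethanol animals, against 13.55, 13.74 and 13.89 in water animals. The lowest animals were ethanol animal 5 and water animal 18, both among those that stood apart, and 9 of 10 ethanol animals lay above the water mean. The log2 difference was 0.09 (SE 0.044, 95% confidence interval -0.004 to 0.18, limma adjusted p = 0.402), with run differences of 0.13, 0.07 and 0.05. It was 0.01 with the neuron marker score as a covariate and 0.06 without the 3 arrays that stood apart.

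Neither subunit of lactate dehydrogenase passed the test. The log2 value of Ldha was 12.93 at its lowest, 13.10 at the median and 13.26 at its highest in ethanol animals, against 12.60, 12.998 and 13.14 in water animals. Water animal 15 lay far below the others, and 7 of 10 ethanol animals lay above the water mean. The means were 13.08 ± 0.12 in ethanol animals and 12.95 ± 0.16 in water animals (SD, n = 10 each), a log2 difference of 0.13 (SE 0.064, limma adjusted p = 0.390). The run differences were 0.26, 0.13 and -0.11, and the difference was 0.09 without the 3 arrays that stood apart. Ldhb, at 14.23 ± 0.094 in ethanol animals and 14.19 ± 0.11 in water animals (SD, n = 10 each), differed by 0.05 (SE 0.048, limma adjusted p = 0.698). Its run differences were 0.12, -0.06 and 0.12. Within an array, Ldha minus Ldhb with the water mean set to 0 averaged 0.09 ± 0.19 in ethanol animals and 0 ± 0.18 in water animals (SD, n = 10 each).

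The other genes of glucose use were measured on 65 of 98 names in 5 lists, and 0 passed limma's adjusted threshold. Before adjustment 8 of them were higher and 4 lower with a p under 0.05, against 7.37% higher and 5.48% lower of all probe sets. Among 13 other glycolysis genes, 10 were higher and 3 lower, with a median difference of 0.05. Tpi1, triosephosphate isomerase, differed by 0.15 (SE 0.058), and Gpi, glucose 6-phosphate isomerase, by 0.12 (SE 0.048). Gpd1, the glycerol 3-phosphate dehydrogenase that is a marker of oligodendrocytes in brain, differed by -0.53 (SE 0.20), on the side of the oligodendrocyte markers given above. Their limma adjusted p-values were 0.314, 0.339 and 0.314.

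Among 4 other hexose transporters, 3 were higher and 1 lower. That 1 was Slc2a5, the fructose transporter found on microglia, at -0.29 (SE 0.057, limma adjusted p = 0.140), whereas Slc2a13, a proton-coupled inositol transporter, differed by 0.17 (SE 0.061, limma adjusted p = 0.305) and Slc2a6 by 0.09 (SE 0.086). Of 17 genes of lactate transport and pyruvate entry, 12 were higher and 5 lower, with a median of 0.03. Pdk4, a kinase that switches off pyruvate dehydrogenase, differed by -0.99 (SE 0.21, limma adjusted p = 0.140). Dld, a subunit of pyruvate dehydrogenase, differed by 0.18 (SE 0.069) and Slc16a7, the neuronal lactate carrier MCT2, by 0.22 (SE 0.099), with limma adjusted p-values of 0.320 and 0.364.

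Of 14 glycogen and pentose phosphate genes, 4 were higher and 10 lower, with a median of -0.02. Rpia, ribose 5-phosphate isomerase, differed by 0.12 (SE 0.032, limma adjusted p = 0.227), Gyg1, glycogenin, by -0.11 (SE 0.056) and Pgm2 by -0.07 (SE 0.052). Of 17 regulators, 9 were higher and 8 lower, with a median of 0.02. Txnip, an arrestin-like protein that holds back glucose uptake and whose transcript follows glucose supply, differed by -0.50 (SE 0.16, limma adjusted p = 0.284), Prkag2, an AMP-activated kinase subunit, by 0.11 (SE 0.050) and Mlx, a partner of the glucose-sensing ChREBP, by 0.09 (SE 0.042). Of the hypoxia-inducible factor genes in the list, Hif1a differed by 0.07 (SE 0.044) and Epas1 by -0.04 (SE 0.040). Their limma adjusted p-values were 0.527 and 0.697. Gapdh is represented by control probe sets only and was not tested.

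Covariation of the members was then measured among the animals of each group, over the 45 pairs of genes, with Pearson's r, Spearman's rho and permutation p-values adjusted over the pairs. In ethanol animals 27 of 45 pairs correlated positively, with a median r of 0.13 and a range of -0.71 to 0.90. In water animals 28 pairs were positive, with a median of 0.14 and a range of -0.72 to 0.90. The median over all pairs of probe sets was 0.008 in ethanol and 0.009 in water animals. The sign was the same in both groups for 34 of the 45 pairs. An r of at least 0.8 in size was reached by 1 pair in ethanol animals (2.22%) and by 3 in water animals (6.67%), against 2.04% of all pairs of probe sets in ethanol animals and 2.99% in water animals.

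**Figure D3:**
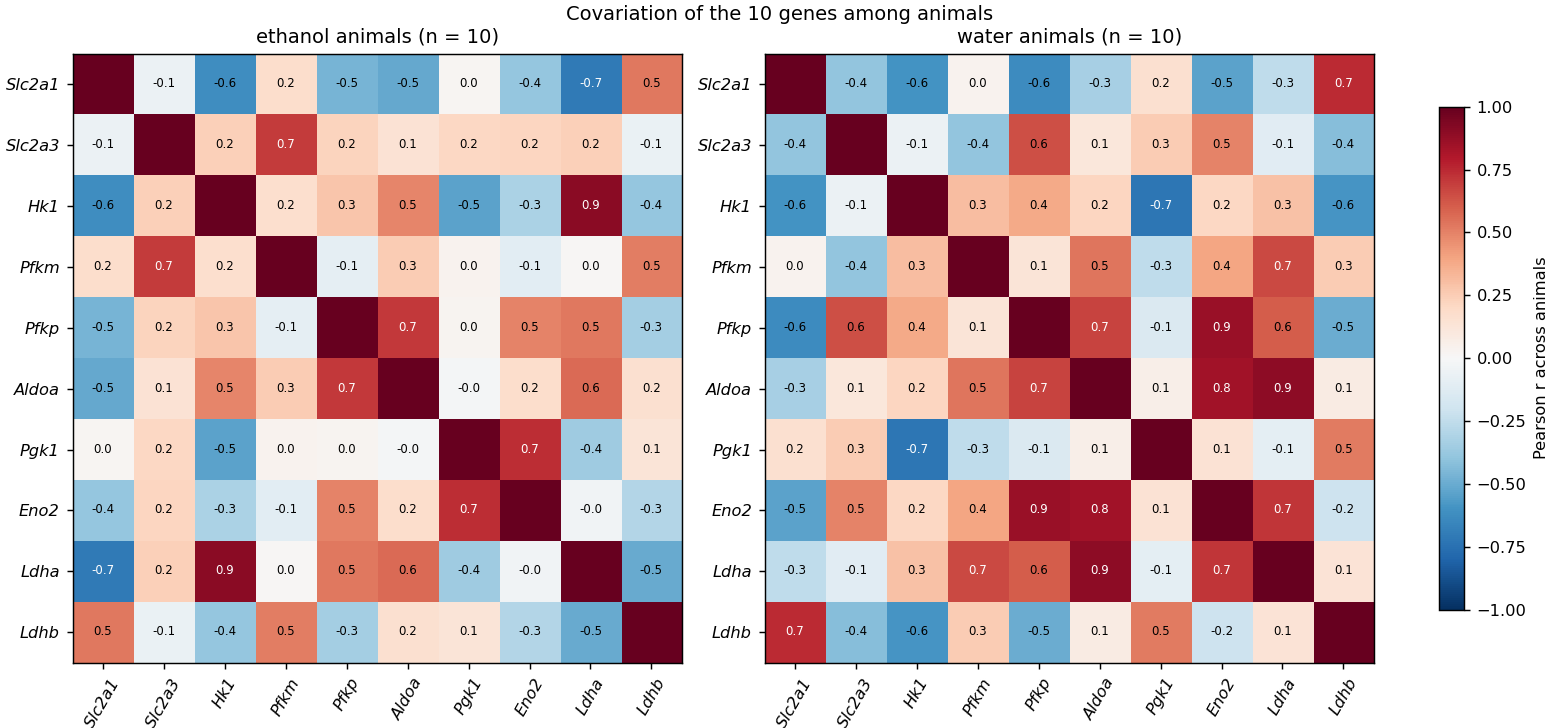
Pearson's r between the main probe sets of the 10 genes among the 10 ethanol animals (left) and the 10 water animals (right), rounded to 1 decimal, from -1 (blue) to 1 (red). In ethanol animals Hk1 with Ldha has the highest r (0.90), and in water animals the block of Pfkp, Aldoa, Eno2 and Ldha stands out (0.60 or above for each pair), while Slc2a1 runs against Hk1 in both.

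In ethanol animals the pair past the threshold was Hk1 with Ldha, the first and the last enzyme of the route to lactate. Its r was 0.90 (permutation p = 0.00078, adjusted p = 0.0351), its rho was 0.84 (permutation p = 0.00381, adjusted p = 0.0857), and r was 0.84 without the 2 animals farthest from the median of Hk1. The adjusted p of r was above 0.05 when ethanol animal 1, 2, 3, 4, 6, 7, 9 or 10 was left out, with r between 0.87 and 0.97 over all 10 omissions and adjusted p-values up to 0.105. In water animals r of this pair was 0.30 (permutation p = 0.41, adjusted p = 0.709), but with values centred within the runs it was 0.92 in ethanol animals and 0.85 in water animals. Each run holds at most 4 animals of a group, too few for an r of its own. Centred within the runs the adjusted p in ethanol animals was 0.290, from permutations within the runs. Such small runs allow few arrangements, so a low adjusted p is hard to reach there. Hk1 entered every pair with its main probe set alone. Over the 20 group-centred arrays that probe set correlated with 1398725_at at 0.53 and with the hexokinase controls at 0.19, -0.23 and -0.21. Pairs with those other probe sets were not computed, so each relation of Hk1 given here is one of its main probe set.

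In water animals 3 pairs passed the threshold. Aldoa with Ldha had an r of 0.90 (permutation p = 0.00052, adjusted p = 0.0117) and a rho of 0.83 (permutation p = 0.00505, adjusted p = 0.0682), and r was 0.96 without the 2 animals farthest from the median of Aldoa and 0.89 centred within the runs. Pfkp with Eno2 had an r of 0.86 (permutation p = 0.00048, adjusted p = 0.0117) and a rho of 0.72 (permutation p = 0.0236, adjusted p = 0.177), with 0.76 without the 2 farthest animals and 0.87 centred within the runs. Aldoa with Eno2 had an r of 0.84 (permutation p = 0.00212, adjusted p = 0.0318) and a rho of 0.84 (permutation p = 0.00354, adjusted p = 0.0682), with 0.73 without the 2 farthest animals and 0.89 centred within the runs. Of the water animals, animal 15 was the lowest in Aldoa and Ldha and animal 18 the lowest in Pfkp and Eno2, and both stood apart. Without both, r was 0.81, 0.70 and 0.73 in the same order and the adjusted p was 0.395 for each. Leaving out water animal 15 alone left 0 pairs past the threshold (adjusted p-values of 0.0721 to 0.0753), and leaving out water animal 18 alone left 1, Aldoa with Ldha. After cyclic loess, another scaling of the arrays, r was 0.56 for Aldoa with Ldha, 0.74 for Pfkp with Eno2 and 0.56 for Aldoa with Eno2, with adjusted permutation p-values of 0.342, 0.261 and 0.342. For residuals on the neuron marker score, r of Pfkp with Eno2 was 0.51 (adjusted permutation p = 0.324). The call for Aldoa with Eno2 was also lost without water animal 12, 14, 16, 19 or 20, with adjusted p-values up to 0.141.

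In ethanol animals r was 0.56 for Aldoa with Ldha, 0.49 for Pfkp with Eno2 and 0.18 for Aldoa with Eno2. Pfkp with Aldoa had a similar r in both groups, 0.71 in ethanol and 0.68 in water animals. The largest difference in r between the groups was that of Slc2a3 with Pfkm, at 0.70 in ethanol animals and -0.40 in water animals, and the adjusted permutation p was 0.259 in ethanol animals and 0.542 in water animals. Without the 2 animals farthest from the median of Slc2a3, r was 0.62 in ethanol animals and 0.03 in water animals. The negative r in water was thus not seen without animals 15 and 18, the water arrays that stood apart. Differences in r between the groups were not tested. Pfkm entered with its main probe set, which correlated with 1386961_at at only 0.27 over the 20 group-centred arrays. Slc2a3 was not set against 1386961_at, so the contrast with Pfkm is one of its main probe set.

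Slc2a1 ran against several enzymes and with Ldhb. Its r with Hk1 was -0.62 in ethanol animals and -0.60 in water animals, with Ldha -0.71 in ethanol animals and -0.25 in water animals, and with Ldhb 0.53 in ethanol animals and 0.75 in water animals. No such pair passed the threshold in either group. Without the 2 animals farthest from the median of Slc2a1, ethanol animals 5 and 6 and water animals 18 and 16, these r were -0.62 in ethanol animals and -0.44 in water animals with Hk1, and -0.46 in ethanol animals and -0.08 in water animals with Ldha. With Ldhb they were 0.09 in ethanol animals and 0.39 in water animals. The animals left out include 2 of the arrays that stood apart. Leaving out extreme animals also narrows the range of Slc2a1, which by itself can lower r. Hk1 with Pgk1 was likewise negative, at -0.54 in ethanol animals and -0.72 in water animals, and without the 2 animals farthest from the median of Hk1 at -0.20 in ethanol animals and -0.66 in water animals.

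Pooling all 20 animals after centring each gene on its group mean, a step added after the values within groups had been seen, gave 7 pairs with an adjusted permutation p under 0.05, and 0 with an r of at least 0.8 in size, which 0.456% of all pairs of probe sets reached. Aldoa with Ldha had an r of 0.78 (permutation p = 8e-05, adjusted p = 0.0036) and a rho of 0.72 (permutation p = 0.00073, adjusted p = 0.0109). Pfkp with Aldoa had an r of 0.67 (permutation p = 0.0015, adjusted p = 0.0225) and a rho of 0.83, whose permutation p of 1e-05 is the smallest the resamples can give (adjusted p = 0.00045). The other positive pairs were Pfkp with Eno2 (r = 0.68), Slc2a1 with Ldhb (0.65) and Aldoa with Eno2 (0.63), and the negative pairs were Hk1 with Pgk1 (-0.64) and Slc2a1 with Hk1 (-0.61), with adjusted permutation p-values of 0.0207, 0.0334, 0.0406, 0.0334 and 0.0406. By rho, 5 pairs passed.

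These 7 pairs behaved differently when samples or runs were set aside. Without the 2 animals farthest from the median of the first gene, r of Pfkp with Eno2 was 0.39 and that of Slc2a1 with Ldhb was 0.46. The animals left out were ethanol animal 5 and water animal 18, and the narrower range can by itself lower r. Centred within the runs, r was 0.72 for Aldoa with Ldha, 0.69 for Pfkp with Aldoa, 0.80 for Pfkp with Eno2 and 0.80 for Aldoa with Eno2. It was 0.46 for Slc2a1 with Ldhb, -0.46 for Slc2a1 with Hk1 and -0.32 for Hk1 with Pgk1, with adjusted permutation p-values of 0.397, 0.291 and 0.428. Without the 3 arrays that stood apart, 0 pairs passed, and r was 0.66 for Aldoa with Ldha, 0.69 for Pfkp with Aldoa and 0.31 for Pfkp with Eno2. For residuals on the neuron marker score r was 0.15 for Pfkp with Eno2 (adjusted permutation p = 0.658), 0.43 for Aldoa with Eno2 and 0.77 for Aldoa with Ldha. After cyclic loess r was 0.53 for Aldoa with Ldha, 0.55 for Pfkp with Aldoa and 0.32 for Aldoa with Eno2. The Aldoa with Ldha pair passed under each of the 20 single omissions (adjusted p up to 0.0295), and Pfkp with Aldoa under all but that of water animal 20 (adjusted p = 0.0529). The number of pairs was 4 without water animal 12, 3 without water animal 14 or 16 or ethanol animal 5, 2 without water animal 18 and 1 without water animal 20.

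The members were also set against 6 cell type or region scores and the 3′ to 5′ signal ratio of the array's controls, 70 relations in each group. In ethanol animals 0 passed the adjusted threshold and 7 had an unadjusted permutation p under 0.05, and in water animals 0 passed and 14 did. The share of all probe sets that relate to these scores was not counted. The relations below are thus not shown to be unusual for the array. Eno2 followed the neuron markers in both groups, with an r of 0.80 in ethanol animals and 0.82 in water animals. Over the 20 group-centred animals that r was 0.81 (adjusted permutation p = 0.0028) with a rho of 0.70, an r of 0.63 without the 2 farthest animals and 0.80 centred within the runs. Pfkp with the neuron markers had an r of 0.77 (adjusted permutation p = 0.0119) and a rho of 0.52, with 0.53 without the 2 farthest animals and 0.80 centred within the runs. These were the 2 of 70 relations that passed, and over the single omissions and the omission of all 3 arrays that stood apart r ran from 0.67 to 0.86 for Eno2 and from 0.52 to 0.84 for Pfkp.

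Other relations of members with these scores did not pass. Slc2a3 with the neuron markers had a pooled r of 0.68 (adjusted permutation p = 0.0546), Ldhb with the endothelial markers 0.67 (0.0511) and Slc2a1 with the central amygdala markers -0.64 (0.0560). With the oligodendrocyte markers r of Slc2a1 was 0.09 in ethanol animals and 0.79 in water animals, and r of Ldhb was 0.17 in ethanol animals and 0.81 in water animals. The adjusted permutation p-values were 0.895 and 0.821 in ethanol animals and 0.112 for each gene in water animals, where the r centred within the runs were 0.48 for Slc2a1 and 0.58 for Ldhb. With the endothelial markers, where GLUT1 is known to be abundant, the pooled r of Slc2a1 was 0.57 (adjusted permutation p = 0.135). The endothelial markers themselves were 8.90 ± 0.096 in ethanol animals and 8.92 ± 0.14 in water animals (SD, n = 10 each, mean log2 value of 10 genes), with 5 higher and 5 lower.

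**Figure D4:**
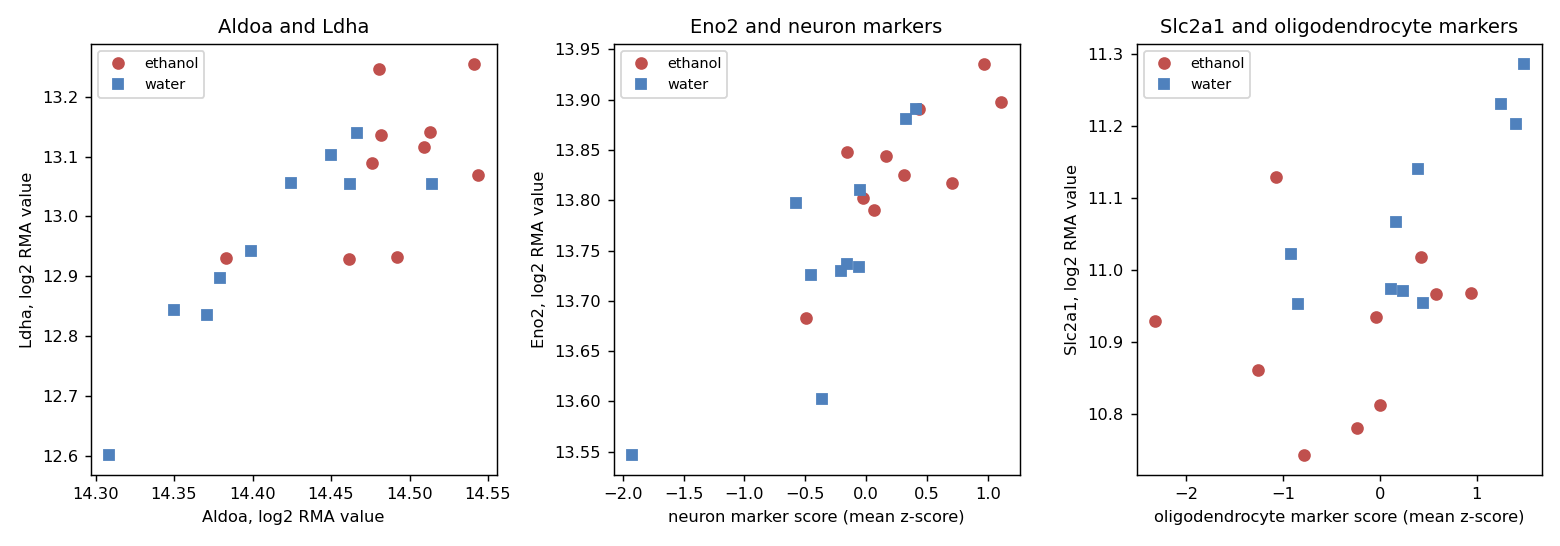
Values of single animals (circles ethanol, squares water) for Ldha against Aldoa, Eno2 against the neuron marker score and Slc2a1 against the oligodendrocyte marker score (mean z-score of the markers). The lowest square in the first panel is water animal 15 and the lowest in the second is water animal 18; in the third, r is 0.09 among ethanol animals and 0.79 among water animals.

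The genes most like the members were named by the highest Pearson r over the 20 group-centred arrays among 10149 other genes. With the mean z-score of the 10 members these were Amigo1 (r = 0.86), Dnajc27 (0.86), Ddx25 (0.85), Selenom (0.83), Agtpbp1 (0.82) and Tpi1 (0.81), the last itself a glycolytic enzyme. Amigo1 encodes a neuronal adhesion protein. For single members the most alike were Nudt16 with Slc2a1 (0.85), Trhde with Slc2a3 (0.91), Supt6h with Hk1 (0.87), Map1lc3a with Pfkm (0.80), Smyd2 with Pfkp (0.89), Cdh13 with Aldoa (0.91), Ndfip2 with Pgk1 (0.76), Pfn2 with Eno2 (0.92), Wdr12 with Ldha (0.96) and Igbp1 with Ldhb (0.90). These are the highest of many correlations over arrays that share their processing, and they are given as a description.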

How the data were processed

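RNA of the central nucleus of the amygdala from 20 P rats was measured on Affymetrix rat arrays. Extraction used Trizol and RNeasy, and labelling the 3′ IVT Express kit, per the labels' protocols. The authors deposited log2 values per probe set, which they made with RMA per the submitters' processing notes (version not given in the sources used here). Base 2 was inferred from the range of the values.

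Symbols came from the array's annotation, updated by Entrez identifier against RefSeq. Groups came from the labels. Probe sets with a mean above the 40th percentile of non-control probe sets (log2 7.14) were kept, 18625 of 31099, among them 13 of the members' 19 and all 10 main ones. Group differences were estimated with limma 3.58.1 (ethanol minus water; R 4.3.3, two-sided, Benjamini-Hochberg over all kept probe sets). Probe sets below the filter and controls were fitted with no filter. Correlations used 100000 two-sided permutations (numpy 2.4.6 under Python 3.11.15, with scipy 1.17.1 and pandas 2.3.3). Permutations were made within groups where animals were pooled, and within the runs of each group where values were centred within the runs. Figures used matplotlib 3.10.9. Both tests were tested on simulated data. Arrays stood apart where their mean correlation lay more than 3 scaled median absolute deviations below the median. The number of arrays limits the precision; the median SE of a difference was 0.062. The limma p-values set a difference against the spread between these animals, and the permutation p-values set an r against rearrangements of them.

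The members, gene lists, scores and tests were chosen with earlier results of these data known. Named genes were the members, up to 3 genes with the smallest p from each pathway list, and the genes most like the members. Hif1a and Epas1 were named besides these, after their values were seen. Alternatives were other filters and scalings, array weights, trend and robust settings, accession runs as a block, marker scores and the control 3′ to 5′ ratio as covariates, 1 probe set per gene, the other probe sets, an adjusted threshold of 0.1, and leaving out animals.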

Additional observations from a re-analysis of the deposited data

Results flagged for a closer look

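In each group the lowest and the highest animal of each member was set against the rest by Dixon's test, and 2 of 20 groups were past its critical value; chance alone flags about 5% of groups. Aldoa in ethanol animal 10 had a log2 value of 14.38, the lowest of its group, with a gap of 0.489 of the group's range to the next animal. Pfkm in water animal 15 had a log2 value of 11.73, the lowest of its group, with a gap of 0.534 of the range. Water animal 15 is 1 of the 3 arrays that stood apart, and ethanol animal 10 is not.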

How the results depend on the processing

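No member passed limma's adjusted threshold under any alternative, the smallest adjusted p being 0.127 (array weights, Slc2a1), and each main probe set kept the sign of its difference in every fit. The median difference of the members lay between 0.04 and 0.10, and between 0.06 and 0.08 over the omissions of single animals. The value of 0.10 came from the second probe sets, where the 3′ hexokinase control, at 0.18, stood for Hk1 in place of 1398725_at, at -0.07. The numbers of correlated pairs were less stable. In ethanol animals (1 pair) they were 0 by rho and 0 centred within the runs, and 0 to 1 over single omissions; the median r was -0.14 for residuals on the neuron score. In water animals (3 pairs) they were 0 by rho, after cyclic loess, centred within the runs and without the arrays that stood apart, 7 for residuals on the oligodendrocyte score, 5 for residuals on the 3′ to 5′ ratio, and 0 to 4 over single omissions; the median r was -0.0856 after cyclic loess. Pooled (7 pairs), they were 1 after cyclic loess, 3 for residuals on either marker score, 0 without the arrays that stood apart, and 1 to 8 over single omissions. After cyclic loess the remaining pooled pair was Slc2a1 with Ldhb (r = 0.71, adjusted permutation p = 0.0414). Within a group, the counts centred within the runs came from permutations inside runs of at most 4 animals. With so few arrangements a pair can hardly pass over 45 pairs, so these counts of 0 do not show that a relation was lost. The causes were not tested. Residuals on the 3′ to 5′ ratio, pooling and its alternatives were chosen after seeing the data. At 10 animals per group a permutation test over 45 pairs needs a high r to pass, so a pair that missed the threshold is not shown to be unrelated. No paired analysis was possible because no animal number occurs in both groups.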
